A study of Mus musculus with 15 samples.

Results

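Kidneys of mice that had both a high-fat diet and the removal of 1 kidney were compared with kidneys of mice that had neither. The first group, HFD-UNX, and the second, LFD-sham, had 4 arrays each, chosen by their titles, so the comparison rests on 8 of the 15 arrays in the series. All mice were male, of the strain given as C57/BJ, and 6 weeks old at surgery. HFD-UNX mice were fed the high-fat diet and lost the left kidney (uninephrectomy), whereas LFD-sham mice were fed the low-fat diet, called chow in the labels, and had a kidney handled but left in place. Each diet was fed for 20 weeks. Kidneys were taken 20 weeks after surgery and frozen, and the RNA of 1 mouse was put on each array. The same model was fitted to the groups with 1 treatment, HFD-sham (3 arrays) and LFD-UNX (4 arrays), whose values are given beside those of the comparison and share its arrays where they are compared with either group. The 2 treatments differ together between HFD-UNX and LFD-sham, so a difference cannot be assigned to either of them from these 8 arrays.

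After the loss of a kidney the remaining one filters and reabsorbs for both, and it does so mainly by enlarging its tubules. A high-fat diet adds a load of fatty acids, which the proximal tubule takes up and oxidises as its main fuel while it also makes glucose and recovers the glucose, amino acids and salts that were filtered. Lipid that is not burned is held in droplets, and in mice long feeding of this kind is known to burden tubules and glomeruli.

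Values below are log2 signals relative to the 75th percentile of each array, called the log2 signal, and differences are HFD-UNX minus LFD-sham with the standard error from limma. Scan days coincided with the diets, and the LFD-sham arrays shared 1 slide, HFD-UNX replicates 1 and 2 another, and HFD-UNX replicates 3 and 4 yet another, so diet and scan day cannot be told apart. The share of spots well above background was 60.7% to 64.4% on LFD-sham arrays and 69.4% to 70.3% on HFD-UNX arrays, without overlap. Over the 8 arrays, the first principal component held 43.6% of the variance and separated the groups, and the second, with 24.3%, separated HFD-UNX replicates 1 and 2 (26.2 and 26.7) from 3 and 4 (-43.4 and -47.5). Those pairs of HFD-UNX arrays differed by 2-fold or more at many genes: of 16032, 962 were higher on replicates 1 and 2 and 479 on replicates 3 and 4. The summed signal of the 20 measured proximal tubule markers was high on all 8 arrays, at 10.38 to 10.54 in LFD-sham and 10.48 to 10.75 in HFD-UNX on the log2 scale, and the loop and distal tubule markers were at 7.84 to 8.42.

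Of 16055 genes tested, 1664 were higher in HFD-UNX (10.4%) and 1467 were lower (9.14%) at an adjusted p under 0.05 in limma, together 19.5%. The higher genes had the larger folds: 601 of them lay between 2-fold and 4-fold and 62 above that, against 146 and 26 of the lower genes. They were also the dimmer ones. In the third of genes with the lowest signal 903 were higher and 311 lower, in the third with the highest signal 310 were higher and 638 lower, and the local background was 17 intensity units on HFD-UNX arrays and 21 to 22 on LFD-sham arrays, and its part in this was not tested. The median difference over all genes was -0.01. The groups did not overlap at 2023 genes that were higher (12.6% of 16015) and 1858 that were lower (11.6%). With the slide as a random block in the model (correlation within a slide 0.41), 76 genes stayed higher and 8 lower, and with normexp background correction 186 were higher and 296 lower. No gene called in the model without the slide was called in the opposite direction in either fit.

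**Figure D1:**
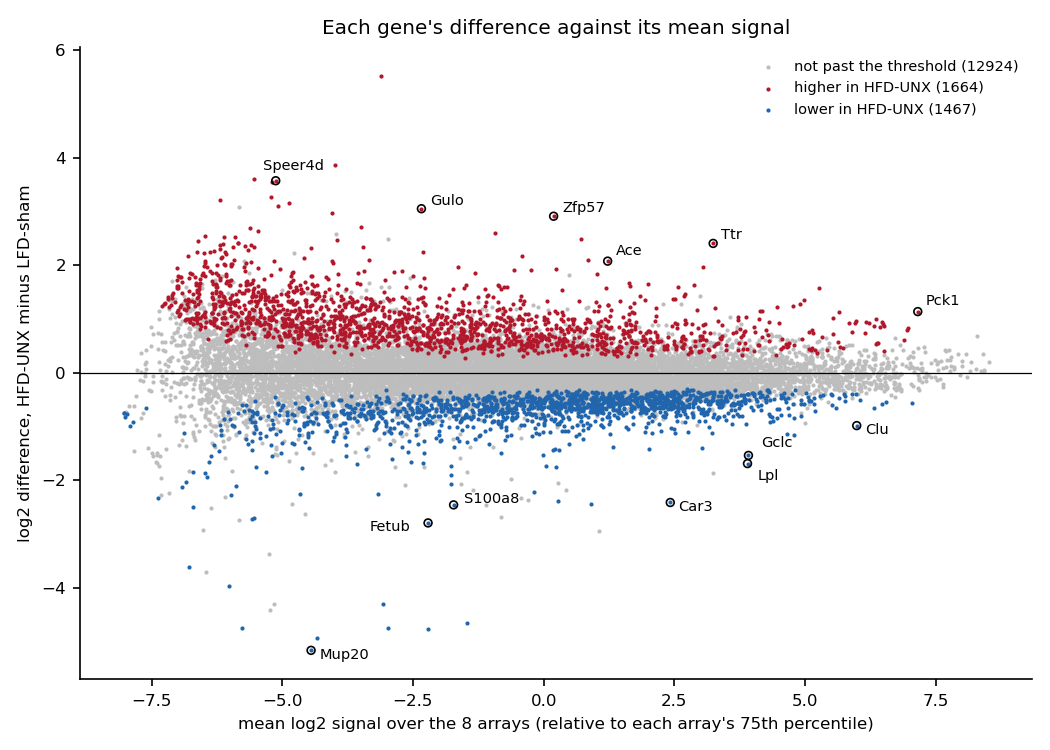
Each point is 1 of the 16055 genes, with its mean log2 signal over the 8 arrays on the horizontal axis and its log2 difference, HFD-UNX minus LFD-sham, on the vertical axis; red and blue points passed the threshold. The 1664 higher genes crowd at low signal and the 1467 lower genes spread toward high signal, where Pck1, Clu, Lpl and Gclc are found.

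The 8 genes that remained lower with the slide as a random block were Car3, Fetub, Ccng2, Il5ra, Ptpn13, Rtl4, Sgcb and Heyl, of which all but the first pair are named because their values were seen. Among the 120 genes past the threshold that are named by rule, 10 kept their call in that model: Car3 and Fetub, which were lower, and Ttr, Casp14, Bhlha9, Bmp1, Speer4d, Hes5, Hyal6 and 1700049L16Rik, which were higher. Every other gene described below as having risen or fallen passed in the model without the slide and did not pass with it. With normexp background correction Car3, Fetub, Ttr and Bmp1 of these 10 passed, while Casp14 (log2 1.48, adjusted p 0.097 in limma), Bhlha9 (1.25, adjusted p 0.14) and the other 4 did not. With HFD-UNX replicates 1 and 2 alone 93 of the 120 kept their call, and with the other pair alone 62. Lpl, Col1a1, C4b, Mtor, Timp1 and Slc38a3 were among those lost with the other pair (adjusted p 0.051 to 0.14 in limma). Such a loss is given below for some genes only. When 1 of the 8 arrays was left out at a time, 73 of the 120 kept their call each time. The array named beside a lost call below is the one whose omission gave the highest adjusted p. Many of these calls were lost without other arrays too.

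Car3, Ttr and Gulo were among the most changed of the genes well above background on all 8 arrays. Car3 encodes carbonic anhydrase 3, an enzyme abundant in fat and muscle. Its log2 signal was 0.86, 1.13 and 1.14 on HFD-UNX replicates 1, 3 and 4, and the spot of replicate 2 was left out as an outlier on its array. On the LFD-sham arrays it was 3.41, 3.36, 3.33 and 3.72. The groups lay far apart, and each was tight. Car3 fell by 2.41 on the log2 scale (SE 0.14, adjusted p 2.54e-06 in limma), a 5.31-fold difference, and it passed with the slide as a random block at an adjusted p of 0.00066. The groups with 1 treatment lay between, at 2.78 ± 0.12 (SD, n = 4) in LFD-UNX and 1.81 ± 0.12 (SD, n = 3) in HFD-sham.

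Ttr encodes transthyretin, the carrier of thyroxine and of the retinol-binding protein. Its signal was 4.31, 4.45, 4.33 and 4.70 in HFD-UNX and 1.45, 2.48, 1.69 and 2.54 in LFD-sham. All HFD-UNX arrays lay above all LFD-sham arrays, and the 4 LFD-sham values were the more scattered. Ttr rose 5.31-fold (log2 2.41, SE 0.22, adjusted p 4.37e-05 in limma). The intermediate means were 2.91 ± 0.10 in LFD-UNX and 3.77 ± 0.30 in HFD-sham.

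Gulo encodes the enzyme of the last step of vitamin C synthesis, which mice have kept. It stood at -1.40, -0.75, 0.00 and -1.09 in HFD-UNX and at -3.68, -3.43, -4.06 and -4.29 in LFD-sham. The groups did not overlap, and HFD-UNX replicate 3 was the highest array. Gulo rose 8.31-fold over LFD-sham (log2 3.05, SE 0.46, adjusted p 0.00082 in limma), and its mean was -2.70 ± 1.07 in LFD-UNX and -3.09 ± 0.59 in HFD-sham. Whether the combined difference departs from the sum of the single ones was tested with the interaction term of limma. No gene passed, at a smallest adjusted p of 0.9996, and 219 of the 16055 genes (1.36%) had an unadjusted p under 0.05. For Gulo the interaction was 1.11, for Car3 -0.09 and for Ttr -0.20. In the comparisons of 1 treatment at a time, which share arrays with the main one, 6.48% of genes were higher and 7.41% lower in HFD-sham than in LFD-sham, 7.67% and 6.52% in HFD-UNX than in LFD-UNX. Surgery alone gave 1 higher gene on the low-fat diet (0.00623%) and none on the high-fat diet in limma, where 747 genes had an unadjusted p under 0.05.

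**Figure D2:**
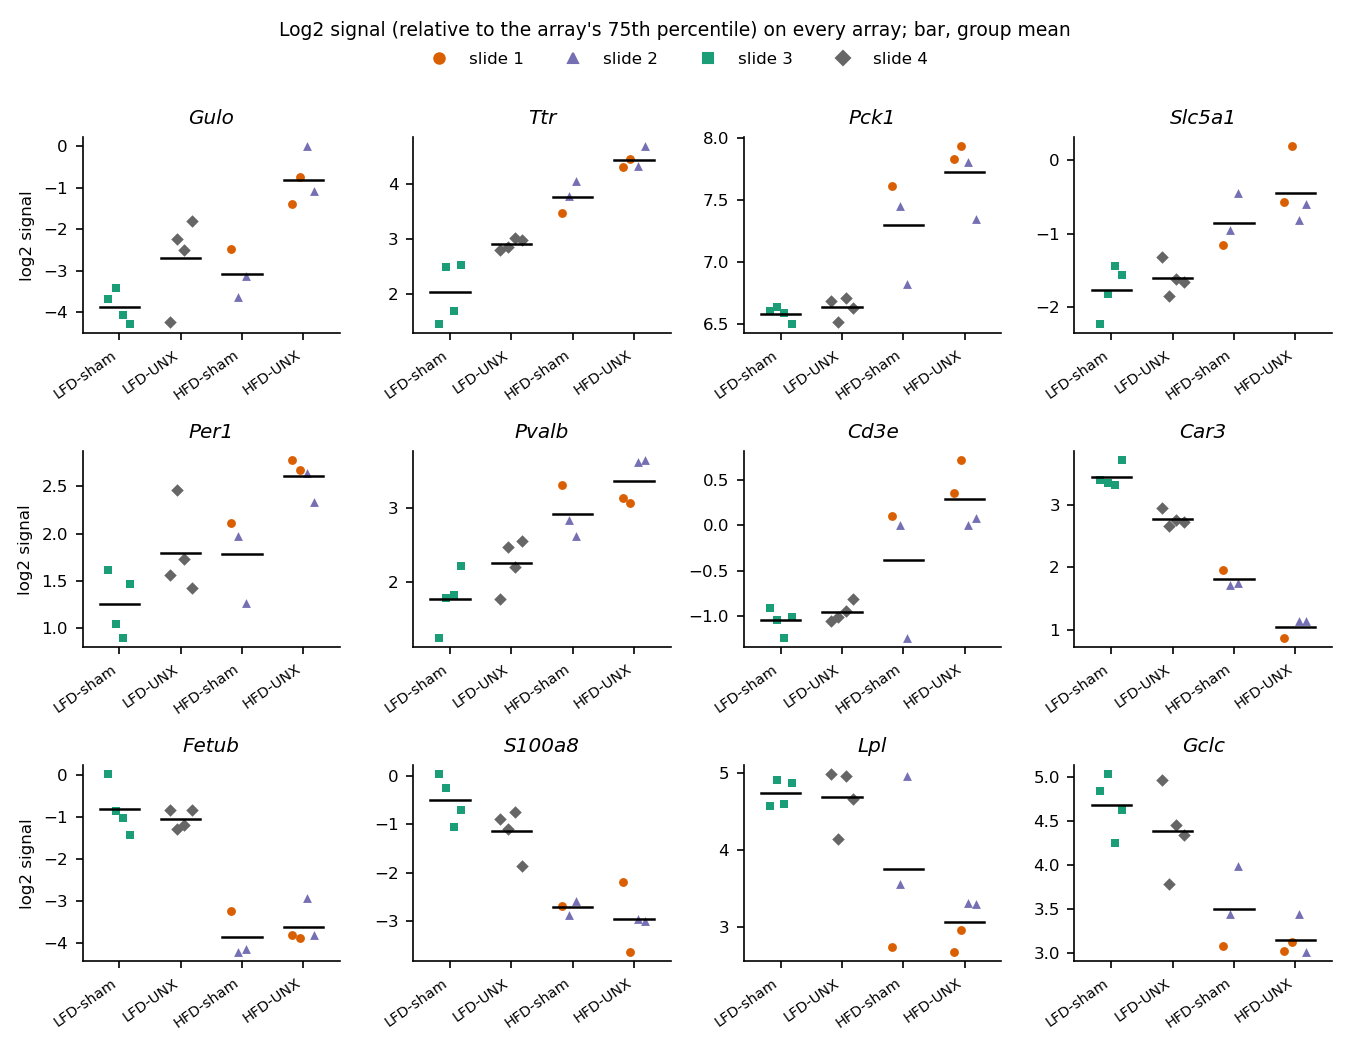
Log2 signal of 12 genes on every array, grouped by diet and surgery; each symbol is 1 array, its shape and colour give the slide, and bars are group means. Car3 and Ttr step from LFD-sham over LFD-UNX and HFD-sham to HFD-UNX, Fetub and S100a8 divide by diet, and Lpl and Cd3e are scattered in HFD-sham.

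The other genes with the largest increases among those well above background on all 8 arrays, and without overlap between the groups, were Zfp57 (log2 2.92), a zinc finger protein that keeps imprints, Casp14 (2.71), a caspase of the skin, Fmnl1 (2.61), a formin, Bmp1 (2.50), which trims procollagens, Bhlha9 (2.34), Zfp36l3 (2.24), Vax2 (2.18) and Itga5 (2.11), the fibronectin receptor subunit. Casp14 was at -2.28 to -1.94 in HFD-UNX and at -5.24 to -4.59 in LFD-sham, so its 2 groups were tight and far apart. With all kept probes of a gene averaged, Zfp57 differed by 1.50 (adjusted p 0.026 in limma) and Bmp1 by 0.78 (adjusted p 0.052), so that Bmp1 did not pass. Fmnl1 was not tight. It stood at 1.26 and 1.69 on HFD-UNX replicates 1 and 2 and at -1.04 and -0.44 on replicates 3 and 4, against -2.36 to -1.98 in LFD-sham. Itga5 divided the same way, at -0.94 and -1.25 against -3.83 and -3.11, and its call was lost without HFD-UNX replicate 2 (adjusted p 0.12 in limma) and without 5 other arrays in turn. Vax2 divided the other way, with replicates 3 and 4 high at 1.86 and 1.44 and replicates 1 and 2 at -0.38 and -0.22.

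**Figure D3:**
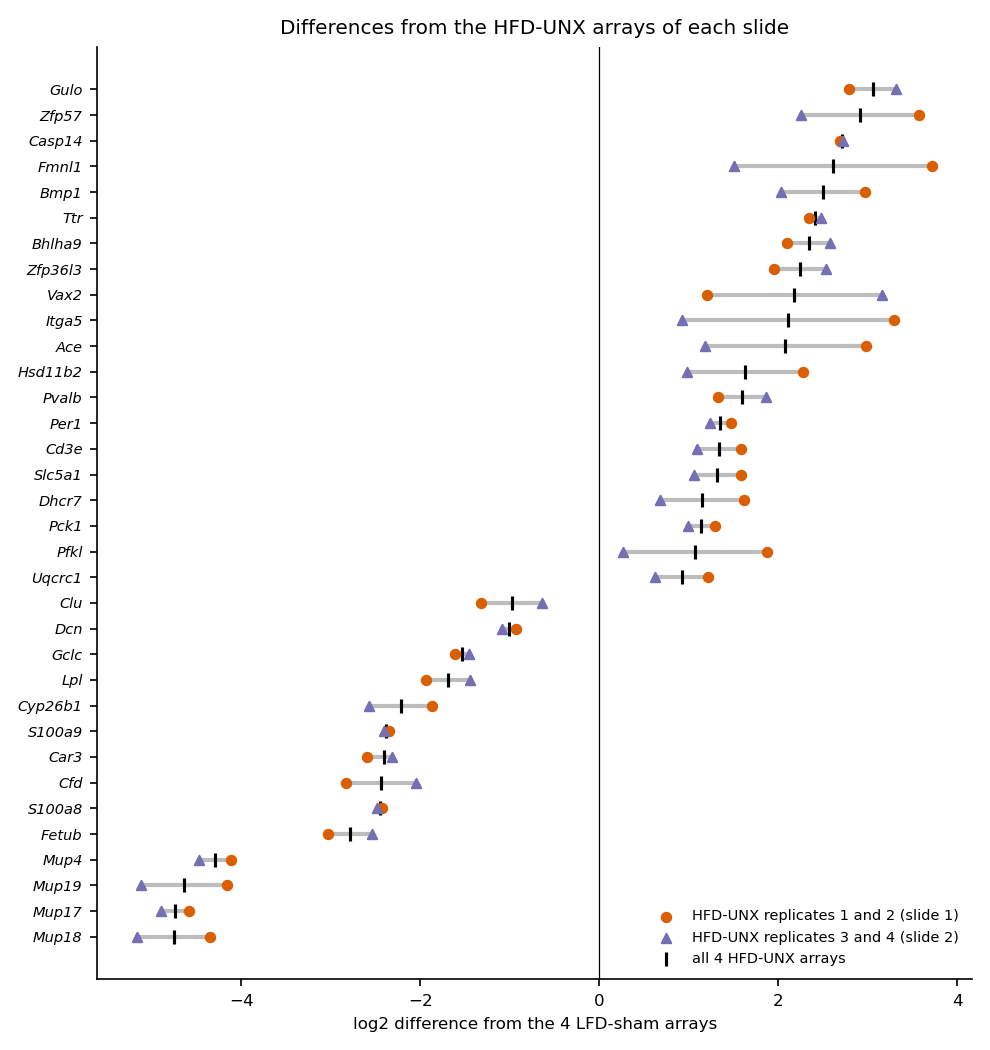
Log2 difference from the 4 LFD-sham arrays for 34 genes, computed from HFD-UNX replicates 1 and 2 (circles), from replicates 3 and 4 (triangles) and from all 4 (bars). The groups of these genes did not overlap, so the sign of each is the same from either pair by that choice. Ttr, Casp14, S100a8 and Gclc hardly move, and Fmnl1, Itga5, Ace and Pfkl are larger from replicates 1 and 2. The circle of Car3 is replicate 1 alone.

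Among genes of proteins that the liver makes, the major urinary protein genes are described first. These encode small carriers of pheromones that male mice make in the liver and pass into urine, and their copies are near-identical. Sequences upstream of 5 of the 6 copies that passed are in RefSeq promoters of build GRCm38.p6, and the last 60 bases before the start site are shown to make the likeness of the copies visible. The capitals mark the motif TATATAA, which is shared by all 5 and resembles the box that sets where transcription begins.

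Mup17: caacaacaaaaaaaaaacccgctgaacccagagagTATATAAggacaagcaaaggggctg
Mup18: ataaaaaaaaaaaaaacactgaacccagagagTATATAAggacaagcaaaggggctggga
Mup19: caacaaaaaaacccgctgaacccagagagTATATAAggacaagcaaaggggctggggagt
Mup4: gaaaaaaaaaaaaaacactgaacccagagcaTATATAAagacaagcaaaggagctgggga
Mup3: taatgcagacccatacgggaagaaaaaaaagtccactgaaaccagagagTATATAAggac

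All lie on the minus strand of chromosome 4, at chr4:61595833-61595892 (Mup17), chr4:61674095-61674154 (Mup18), chr4:61782225-61782284 (Mup19), chr4:59960668-59960727 (Mup4) and chr4:62087318-62087377 (Mup3). On either strand the motif is present in 998 of 32851 promoters (3.04%) within 250 bases upstream of the start. The match is a description of the sequence. Because the copies are so alike, a probe for one can take up transcripts of others, and the values of single Mup genes are uncertain.

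Mup18 was at -3.80, -4.56, -5.28 and -4.72 in HFD-UNX and at 2.98, 0.37, -0.26 and -2.43 in LFD-sham. The groups did not overlap, but LFD-sham replicates 1 and 4 lay as far apart as the groups did. Mup18 fell by 4.75 on the log2 scale (SE 1.37, adjusted p 0.027 in limma), Mup17 by 4.74, Mup19 by 4.64 and Mup4 by 4.29. Mup3, not well above background on any HFD-UNX array, was at least 8.02-fold lower, and Mup20, well above it on 1, was at least 19.7-fold lower. Ahsg, which encodes fetuin-A, fell with them and was at least 21.8-fold lower. Uox, the urate oxidase that degrades uric acid in mice, was at least 5.18-fold lower, and the pseudogene Serpina4-ps1 at least 2.69-fold. The mean of Mup18 was 0.90 ± 3.43 in LFD-UNX and -3.97 ± 0.83 in HFD-sham, and that of Ahsg -1.25 ± 3.12 and -6.14 ± 1.16.

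Each of these calls was lost without LFD-sham replicate 1, the array on which all 9 of these genes were highest: the adjusted p in limma then ran from 0.061 for Ahsg to 0.14 for Uox, and Mup18 fell by 3.82 at an adjusted p of 0.087. Most were lost without other arrays too. Of the 8 fits that left out an array, Mup4, Uox and Serpina4-ps1 lost their calls in 7. Mup19 and Mup3 lost theirs in 6, Mup18 and Mup20 in 5, Mup17 in 3 and Ahsg in 1. In the same arrays Alb, the albumin gene, went from -0.67 to 1.34 in LFD-sham and from 0.28 to 0.66 in HFD-UNX, and it was also highest on LFD-sham replicate 1. Apoa1 was well above background on 3 LFD-sham arrays and 1 HFD-UNX array (adjusted p 0.085 in limma). Of 23 measured liver markers 18 lay below zero, 4 were lower and 1, Ttr, was higher, with a median of -0.52. Their summed signal was 7.76 to 8.21 in LFD-sham and 7.61 to 7.67 in HFD-UNX, and the part of that signal in these differences was not tested.

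Fetub, for fetuin-B, behaved more evenly. It was at -3.82, -3.88, -2.93 and -3.80 in HFD-UNX and at 0.03, -0.84, -1.02 and -1.43 in LFD-sham. The groups were well separated, with HFD-UNX replicate 3 above its group. Fetub fell by 2.79 on the log2 scale (SE 0.31, adjusted p 0.00016 in limma), and it kept its call in every alternative run. Its mean was -1.03 in LFD-UNX and -3.86 in HFD-sham.

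**Figure D4:**
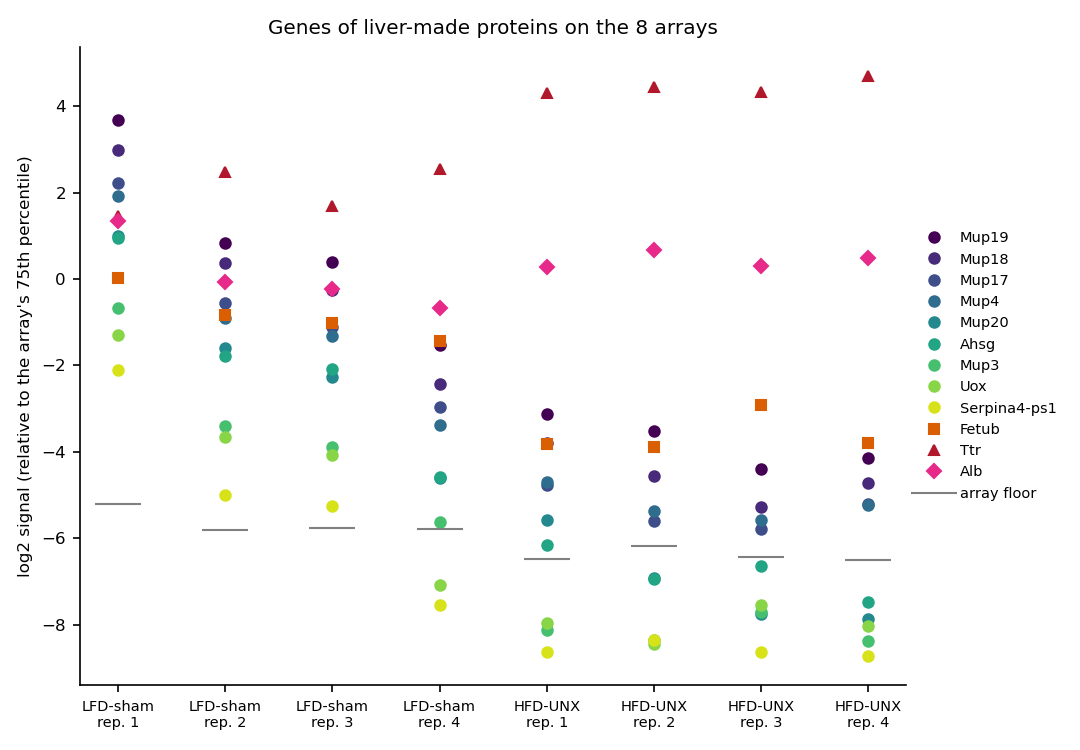
Log2 signal of 12 genes of liver-made proteins on the 4 LFD-sham and 4 HFD-UNX arrays, with the floor of each array as a grey dash; the heights of different genes are not comparable, since each has its own probe. The Mup genes, Ahsg, Uox and Serpina4-ps1 are highest on LFD-sham replicate 1, lowest in LFD-sham on replicate 4, and lower still on all HFD-UNX arrays, while Ttr is higher on all HFD-UNX arrays.

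Across the gene lists, 44 of 656 distinct measured members rose (6.71%) and 67 fell (10.2%), near or under the 10.4% and 9.14% of all genes. In the model with the slide as a random block the list members that passed were Car3, Ttr and Fetub. With HFD-UNX replicates 1 and 2 alone 96 members were higher and 106 lower, and with replicates 3 and 4 alone 42 and 32. Lists are described by these counts and their medians, with no test of the list itself.

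**Figure D5:**
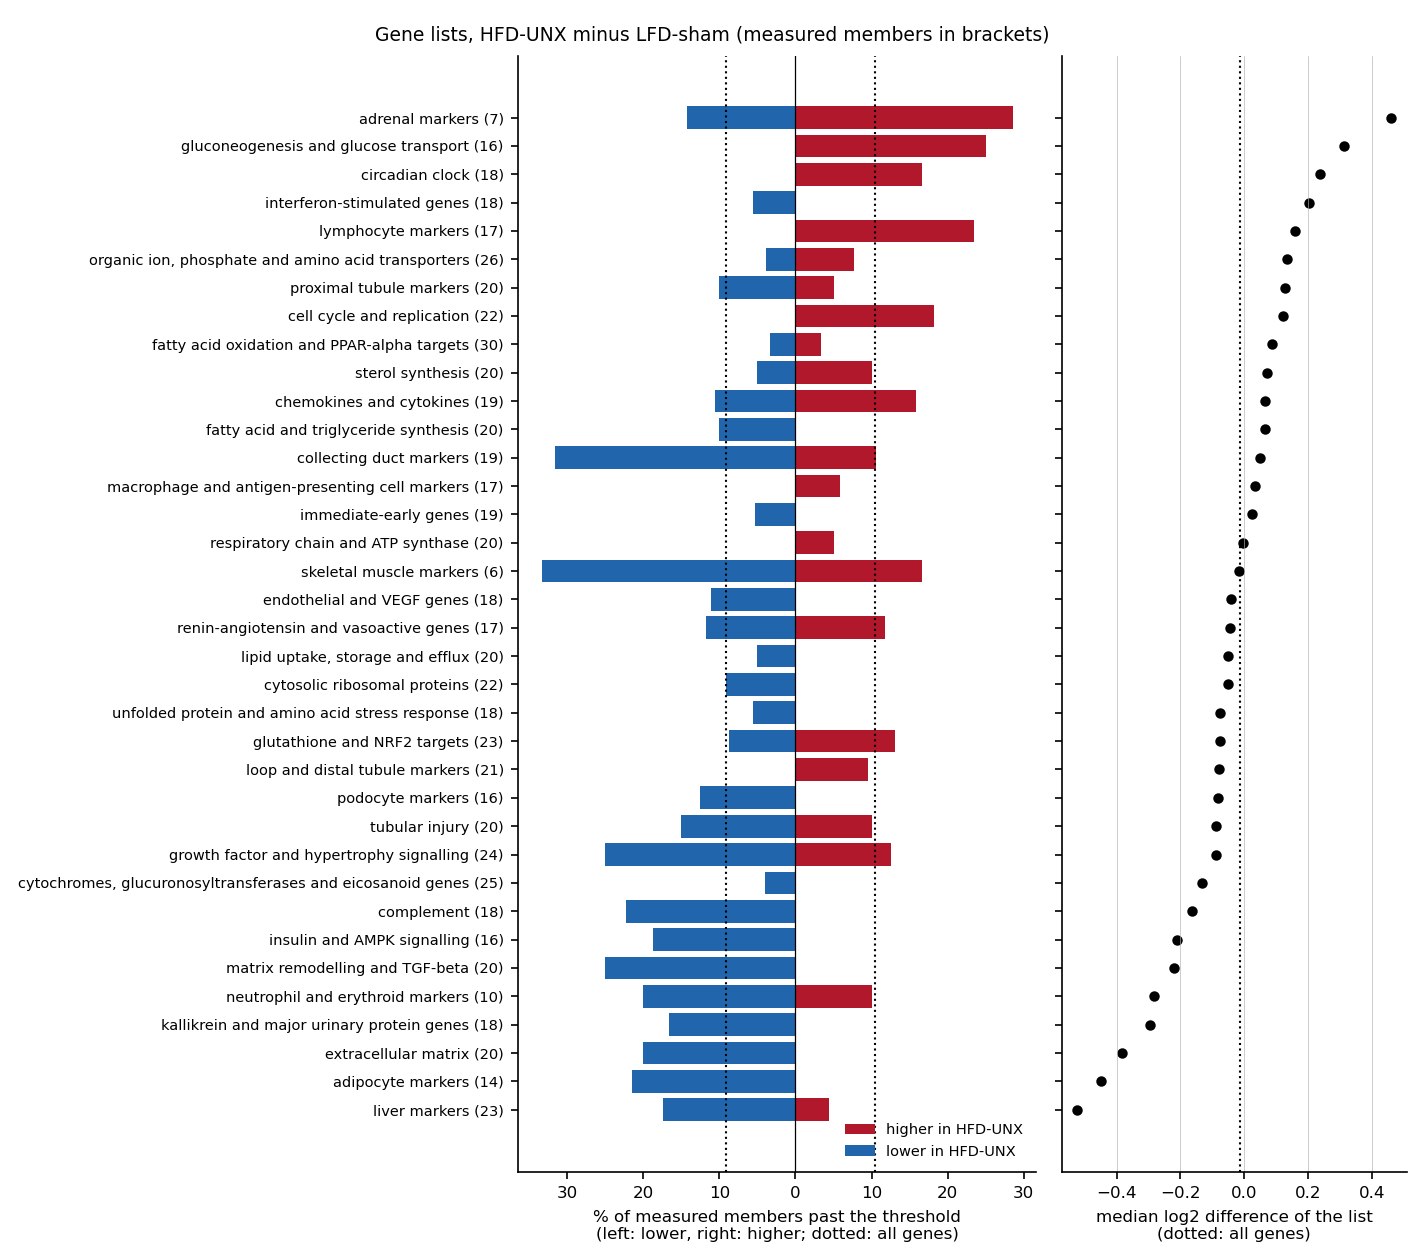
For each of the 36 lists, the left panel gives the percentage of measured members that were higher (right, red) or lower (left, blue) in HFD-UNX, and the right panel the median log2 difference; dotted lines give the values over all genes, 10.4% higher, 9.14% lower and a median of -0.01. Gluconeogenesis and lymphocyte lists have members that rose and none that fell, and matrix, complement and adipocyte lists the reverse.

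Of 16 measured genes of gluconeogenesis and glucose transport 4 rose and none fell, with a median of 0.31. Pck1, the committing enzyme of gluconeogenesis and one of the brightest genes of the proximal tubule, was at 7.83, 7.93, 7.80 and 7.34 in HFD-UNX and at 6.61, 6.64, 6.59 and 6.50 in LFD-sham. Every HFD-UNX array was above every LFD-sham array. Pck1 rose 2.21-fold (log2 1.14, SE 0.17, adjusted p 0.00071 in limma), with 6.64 ± 0.09 in LFD-UNX and 7.29 ± 0.42 in HFD-sham. Slc5a1, the sodium-glucose cotransporter of the late proximal tubule, was at -0.57, 0.19, -0.81 and -0.60 against -2.24, -1.83, -1.44 and -1.56. It rose 2.50-fold (log2 1.32, SE 0.23, adjusted p 0.0022 in limma) without overlap. Its early-tubule counterpart Slc5a2 differed by -0.21 (adjusted p 0.39 in limma). Pfkl, a glycolytic phosphofructokinase, and the fructose transporter Slc2a5 passed narrowly, at 1.07 and 0.52, and lost their calls without HFD-UNX replicate 2 (Pfkl 0.74, adjusted p 0.14 in limma) or LFD-sham replicate 2 (Slc2a5 0.44, adjusted p 0.12). Each lost its call in 6 of the 8 fits that left out an array.

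Insulin and adiponectin signalling had 3 of 16 members lower and none higher (median -0.21). Socs3, an inhibitor of cytokine and insulin receptors, was at -1.27, -2.30, -1.64 and -1.38 in HFD-UNX and at -0.19, -0.64, -0.77 and -0.72 in LFD-sham. It fell by 1.07 on the log2 scale (SE 0.23, adjusted p 0.0068 in limma), and the groups did not overlap. The kinase gene Gsk3b fell by 0.51 and the adiponectin receptor gene Adipor2 by 0.31, and each lost its call in 6 or 7 of the 8 fits that left out an array, with an adjusted p in limma of up to 0.094 and 0.11. Adipor1 differed by 0.42 (adjusted p 0.063 in limma).

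Of 30 genes of fatty acid oxidation and of the PPAR-alpha programme, which matches oxidation to fatty acid supply, 1 rose and 1 fell. Acadl, a mitochondrial acyl-CoA dehydrogenase, rose by 0.60 and lost its call without LFD-sham replicate 1 (0.48, adjusted p 0.079 in limma). Angptl4, a secreted inhibitor of lipoprotein lipase, fell by 1.14 (SE 0.24, adjusted p 0.0057 in limma), from 4.67, 5.63, 5.58 and 5.07 to 4.16, 3.95, 4.17 and 4.09. The HFD-UNX values were tight and all lay below LFD-sham. Cpt1a, which brings long fatty acids into mitochondria, differed by 0.34 (adjusted p 0.10 in limma), and Ppara itself by -0.05.

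The lipase that Angptl4 inhibits also fell. Lpl, which frees fatty acids from circulating lipoproteins, was at 2.67, 2.95, 3.31 and 3.30 in HFD-UNX and at 4.58, 4.91, 4.60 and 4.88 in LFD-sham. The groups did not overlap, and Lpl fell by 1.69 on the log2 scale (SE 0.36, adjusted p 0.0058 in limma), with 4.69 ± 0.39 in LFD-UNX and 3.75 ± 1.13 in HFD-sham. It was the only one of 20 genes of lipid uptake, storage and efflux to pass. The fatty acid carrier Cd36 differed by -0.07 (adjusted p 0.88 in limma).

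Synthesis of fatty acids had 2 of 20 members lower and none higher. Acacb, whose product malonyl-CoA restrains oxidation, was at -0.16, 0.01, 0.51 and -0.26 against 1.57, 1.12, 1.02 and 1.08. It fell by 1.17 (SE 0.19, adjusted p 0.0012 in limma) with no overlap, and the elongase gene Elovl6 fell by 0.52 (adjusted p 0.013 in limma). Fasn (0.59), Scd1 (0.60) and Srebf1 (0.04) had adjusted p values of 0.18, 0.34 and 0.89 in limma, and their groups overlapped. Of 20 sterol genes 2 rose and 1 fell. Dhcr7, of the last step of cholesterol synthesis, rose by 1.15, and Pmvk of the mevalonate pathway fell by 0.44. Dhcr7 was at -0.22 and -0.17 on HFD-UNX replicates 1 and 2 and at -1.54 and -0.72 on replicates 3 and 4, and lost its call without replicate 2 (0.98, adjusted p 0.062 in limma).

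Of 14 measured adipocyte markers 3 fell and none rose past the threshold, with a median of -0.45. By sign alone 9 lay below zero and 5 above, the highest at 2.58, which did not pass. The summed signal of the 14 markers was 4.81 to 5.54 in LFD-sham and 3.68 to 4.71 in HFD-UNX. The 4.71 was that of HFD-UNX replicate 2, where the sum lacks Car3, so a gap between the groups is not established. The 3 were Car3, the adipsin gene Cfd (-2.44, SE 0.78, adjusted p 0.042 in limma) and Adig, which fell by 0.68. Cfd was at -1.18, -0.23, 0.20 and -0.05 in HFD-UNX and at 1.09, 2.51, 2.02 and 2.88 in LFD-sham. The groups did not overlap, yet the call was lost without HFD-UNX replicate 1 (-2.15, adjusted p 0.11 in limma) and in 5 of the other such fits, and that of Adig in 6 (adjusted p up to 0.12). Adig was at 0.044 with all its kept probes averaged (adjusted p 0.93 in limma). Defining fat genes had wider and overlapping ranges: Adipoq ran from -2.58 to 0.39 in HFD-UNX and from -1.09 to 1.17 in LFD-sham (adjusted p 0.64 in limma), and Plin1 from -4.21 to -2.10 and from -3.74 to -1.78 (adjusted p 0.75). Their part in the calls was not tested. In bulk kidney RNA, fewer cells of a type and less RNA per cell cannot be told apart.

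Of 20 extracellular matrix genes 4 fell and none rose, with a median of -0.38, and of 20 genes of matrix remodelling and TGF-beta signalling 5 fell and none rose, with a median of -0.22. Dcn, the proteoglycan decorin, was at 2.60, 2.87, 2.60 and 2.56 in HFD-UNX and at 4.16, 3.44, 3.86 and 3.22 in LFD-sham. It fell by 1.01 on the log2 scale (SE 0.21, adjusted p 0.0053 in limma). Col1a1 of the fibrillar type I collagen was at -0.56, -0.80, -0.24 and -0.20 against 0.73, 0.19, 0.71 and 0.27, and fell by 0.93 (SE 0.23, adjusted p 0.014 in limma). Neither gene's groups overlapped. Col1a2 (-0.79) and Col5a1 (-0.80) passed as well and lost their calls without LFD-sham replicate 1 (adjusted p 0.13 and 0.093 in limma). Over the 8 fits that left out an array, Col1a2 lost its call in 7 and Col5a1 in 6.

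Timp1, an inhibitor of matrix metalloproteinases, was at -2.46, -3.32, -2.42 and -2.35 in HFD-UNX and at -0.40, -0.87, -1.05 and -1.28 in LFD-sham. It fell by 1.74 (SE 0.37, adjusted p 0.0058 in limma), and the mean of LFD-UNX, -1.95, lay between. Lox, which crosslinks collagen, was well above background on 3 LFD-sham arrays and no HFD-UNX array, and was at least 2.93-fold lower (adjusted p 0.0047 in limma). Lox lost its call with normexp background correction and with a common floor for all arrays. Timp2 fell by 0.71 and Tgfb3 by 0.60, and Timp2 lost its call without LFD-sham replicate 1 (adjusted p 0.087 in limma). Timp2 lost its call in 5 of the 8 fits that left out an array. Tgfb1 did not pass, but its HFD-UNX arrays were far apart. It was at 0.17 and -0.06 on replicates 1 and 2, at -2.15 and -1.78 on replicates 3 and 4, and at -2.08 to -1.83 in LFD-sham (log2 1.00, adjusted p 0.18 in limma). Fn1, for fibronectin, was lower on all HFD-UNX arrays without passing (-0.57, adjusted p 0.096 in limma).

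Injury genes did not move one way: of 20 measured, 2 rose and 3 fell (median -0.09). Clu, the secreted chaperone clusterin, was at 5.21, 5.10, 5.98 and 5.70 against 6.62, 6.32, 6.48 and 6.50 and fell by 0.98 (SE 0.19, adjusted p 0.0040 in limma). Anxa1, an anti-inflammatory annexin, fell by 0.67 and the keratin gene Krt18 by 0.93, whose call was lost without LFD-sham replicate 1 (adjusted p 0.065 in limma). Cd44, the hyaluronan receptor of injured tubules, rose by 0.78 (SE 0.15, adjusted p 0.0038 in limma), and by its mean over all kept probes differed by 0.34 (adjusted p 0.18). The injury markers Havcr1 (-0.07) and Lcn2 (-0.20) had overlapping groups and adjusted p values of 0.95 and 0.81 in limma. Havcr1 spread from -4.52 to -1.91 within LFD-sham alone.

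Podocyte markers had 2 of 16 members lower and none higher. Wt1, a transcription factor of podocytes, fell by 0.65 and lost its call in 7 of 8 fits without an array, with an adjusted p of up to 0.13 in limma without HFD-UNX replicate 2. Nphs1, for nephrin, differed by -0.35 (adjusted p 0.16 in limma) and Vegfa by 0.07 (adjusted p 0.79). The endothelial genes Nos3 and Flt1 fell by 0.53 and 0.41, 2 of 18 in their list, and Flt1 lost its call without HFD-UNX replicate 2 (adjusted p 0.11 in limma) and Nos3 without LFD-sham replicate 1 (adjusted p 0.055) and with all its kept probes averaged (-0.24, adjusted p 0.45). Flt1 lost its call in 7 of 8 fits without an array and Nos3 in 4. The summed podocyte signal was 5.09 to 5.36 in LFD-sham and 4.94 to 5.11 in HFD-UNX.

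Transporters of the nephron moved singly. Slc13a3, the dicarboxylate cotransporter of the basolateral proximal tubule, was at 6.44, 6.61, 7.08 and 6.90 against 5.77, 5.76, 5.96 and 6.07. It rose 1.82-fold (log2 0.87, SE 0.16, adjusted p 0.0026 in limma) with no overlap. Slc5a12, a lactate cotransporter, fell by 0.80 (adjusted p 0.012 in limma), from 4.34, 4.06, 4.23 and 4.16 to 3.13, 2.93, 3.48 and 4.06. HFD-UNX replicate 4 stood at the LFD-sham level and replicates 1 and 2 well below it. Slc5a12 did not pass with all kept probes averaged. Of 20 proximal tubule markers 1 rose and 2 fell, the other being the amino acid transporter gene Slc7a7 (-0.57, lost without HFD-UNX replicate 2 at an adjusted p of 0.074 in limma), and the endocytic receptor gene Lrp2 differed by 0.22 (adjusted p 0.44 in limma).

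Among 26 organic ion, phosphate and amino acid transporters 2 rose and 1 fell. Slc38a3, the glutamine carrier that feeds ammonia production, was at 1.89, 2.22, 1.44 and 1.16 in HFD-UNX and at 0.38, 0.78, 0.42 and 0.18 in LFD-sham. It rose 2.36-fold (log2 1.24, SE 0.31, adjusted p 0.014 in limma). Its log2 difference was 1.62 from HFD-UNX replicates 1 and 2 alone. From the other pair alone it was 0.86 (adjusted p 0.14 in limma), and the call was lost. The phosphate cotransporter gene Slc34a3 fell by 0.86 and lost its call without HFD-UNX replicate 2 (-0.72, adjusted p 0.057 in limma). Slc22a2, an organic cation transporter, passed barely at 0.33 (adjusted p 0.049) and lost its call in 7 of 8 fits without an array. Kl, for klotho, the co-receptor of a phosphate-lowering hormone, differed by -0.01 (adjusted p 0.98 in limma).

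In the loop and distal tubule 2 of 21 genes rose and none fell. Pvalb, the calcium-binding parvalbumin of the distal convoluted tubule, was at 3.13, 3.07, 3.61 and 3.64 in HFD-UNX and at 1.24, 1.79, 1.82 and 2.21 in LFD-sham. All HFD-UNX arrays were higher, and Pvalb rose 3.02-fold (log2 1.60, SE 0.24, adjusted p 0.00077 in limma), with 2.25 ± 0.36 in LFD-UNX and 2.92 ± 0.35 in HFD-sham. Atp2b4, a calcium pump of the plasma membrane, rose 1.91-fold (adjusted p 0.0022 in limma), and by the mean of its kept probes differed by 0.23 on the log2 scale (adjusted p 0.39). Umod, for the uromodulin of the thick ascending limb, differed by 0.27 (adjusted p 0.27 in limma). Pvalb is a muscle marker too, and of the 6 measured skeletal muscle markers the actin gene Acta1 fell by 0.77, with overlapping groups, and Tnnt3 passed as lower. The summed muscle signal was 1.43 to 2.31 in LFD-sham and 3.12 to 3.67 in HFD-UNX. Most of that sum was Pvalb itself, at 1.24 to 2.21 and 3.07 to 3.64. The sum therefore cannot show whether muscle had a part in the call of Pvalb, which was not tested. Tnnt3 was well above background on 1 array of each group. The call of Acta1 was lost without LFD-sham replicate 4 (adjusted p 0.11 in limma). Acta1 lost its call in 6 of the 8 fits that left out an array.

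The collecting duct list had 6 of 19 members lower, against 9.14% of all genes, and 2 higher. Nr3c2, the mineralocorticoid receptor, fell by 0.83 (SE 0.24, adjusted p 0.025 in limma), and its values of -4.03, -4.17, -3.70 and -4.71 lay under -2.94, -3.30, -3.45 and -3.59 in LFD-sham. Hsd11b2, the enzyme that shields this receptor from glucocorticoid, rose 3.10-fold (log2 1.63, SE 0.42, adjusted p 0.016 in limma). It was at 0.30 and 0.89 on HFD-UNX replicates 1 and 2, at -0.75 and -0.64 on replicates 3 and 4, and at -2.34 to -1.34 in LFD-sham. Of intercalated cell genes, Atp6v0d2 of the proton pump fell by 0.63 (SE 0.12, adjusted p 0.0033 in limma) and the transcription factor gene Foxi1 by 0.61. Atp6v0d2 did not pass with all kept probes averaged. Nr3c2 lost its call without LFD-sham replicate 1 (-0.71, adjusted p 0.080 in limma), Hsd11b2 (1.32, adjusted p 0.056) and Foxi1 (-0.48, adjusted p 0.099) without HFD-UNX replicate 2. Of the 8 fits without an array, Foxi1 lost its call in 5, Nr3c2 in 4 and Hsd11b2 in 2. From replicates 1 and 2 alone 7 members were lower, and from replicates 3 and 4 alone 1.

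Of 17 renin-angiotensin and vasoactive genes 2 rose and 2 fell. Ace, which makes angiotensin II, was at 3.24, 3.08, 0.93 and 1.80 in HFD-UNX and at 0.03, 0.38, -0.24 and 0.57 in LFD-sham. The groups did not overlap, but replicates 1 and 2 were far above 3 and 4. Ace rose 4.23-fold (log2 2.08, SE 0.46, adjusted p 0.0072 in limma), 2.98 from replicates 1 and 2 alone and 1.18 from 3 and 4 alone, where the call was lost. Mas1, a receptor whose signal opposes that of angiotensin II, was at -4.12, -4.42, -5.07 and -4.07 against -2.80, -2.98, -2.90 and -2.27, and fell by 1.68 (SE 0.33, adjusted p 0.0034 in limma). Nppa rose by 0.78 and Adra1a fell by 0.46, and both lost their calls without HFD-UNX replicate 2 (adjusted p 0.11 and 0.14 in limma). Nppa lost its call in 7 of the 8 fits without an array and Adra1a in 6. Ren1 (-0.53) and Agt (0.67) had adjusted p values of 0.43 and 0.11 in limma.

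Calprotectin genes fell strongly. S100a8, a calcium-binding protein of neutrophils and monocytes, was at -2.19, -3.64, -2.96 and -3.00 in HFD-UNX and at 0.04, -0.26, -1.05 and -0.71 in LFD-sham. S100a9, its partner, was at -0.14, -1.65, -0.76 and -1.12 against 1.89, 1.74, 0.91 and 1.30. The groups of both were clear of each other, and the genes fell by 2.45 (SE 0.31, adjusted p 0.00032 in limma) and 2.38 (SE 0.32, adjusted p 0.00048). Means of S100a8 were -1.15 ± 0.49 in LFD-UNX and -2.71 ± 0.14 in HFD-sham. Elane, another neutrophil gene, rose by 0.95 (adjusted p 0.0040 in limma), and of 10 measured neutrophil and erythroid markers these were the 3 that passed. The summed signal of all 10 markers was 7.44 to 7.73 in LFD-sham and 7.08 to 8.09 in HFD-UNX. The 3 genes that passed were at 1.89 or less on each of the 8 arrays, so most of that sum came from other members.

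In the lymphocyte list 4 of 17 markers rose and none fell (median 0.16). Cd3e, a chain of the T cell receptor complex, was at 0.35, 0.72, 0.00 and 0.08 in HFD-UNX and at -0.91, -1.04, -1.24 and -1.01 in LFD-sham. It rose 2.53-fold (log2 1.34, SE 0.25, adjusted p 0.0027 in limma) with no overlap. Cd4 rose 1.79-fold (adjusted p 0.0044 in limma), the B cell genes Cd22 by 0.93 and Cd79b by 0.92, and Cd79b lost its call without HFD-UNX replicate 2 (0.78, adjusted p 0.060 in limma). The summed signal was 1.94 to 2.14 in LFD-sham and 2.51 to 2.76 in HFD-UNX. From HFD-UNX replicates 1 and 2 alone 8 members were higher, and from 3 and 4 alone 2.

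Of 17 macrophage markers Lyz1 rose, by 0.65, and lost its call without LFD-sham replicate 3 (0.61, adjusted p 0.064 in limma). Among 19 chemokines and cytokines 3 rose and 2 fell, all dim. Tnf was at -4.57, -5.00, -5.99 and -5.40 against -6.65, -6.53, -6.88 and -6.70, well above background on 4 and 2 arrays, and was at least 1.32-fold higher (adjusted p 0.0035 in limma). Tnf lost its call with normexp background correction and with a common floor for all arrays. Its log2 difference went down to 0.22 over the alternatives run. Ccl3, at least 1.54-fold higher, and the neutrophil chemokine gene Cxcl1, at least 2.65-fold, had overlapping groups and lost their calls without LFD-sham replicate 1 (Ccl3, adjusted p 0.070 in limma) or 3 (Cxcl1, adjusted p 0.098). Il6 was well above background on 2 LFD-sham arrays only and was at least 1.14-fold lower (adjusted p 0.049 in limma, lost without LFD-sham replicate 2 at 0.14). Of the 8 fits without an array, Il6 lost its call in 7, Cxcl1 in 5 and Ccl3 in 3. Ccl2 differed by -0.39 (adjusted p 0.50 in limma). Of 18 interferon-stimulated genes Irf1 fell, by 0.45, and lost its call in 6 fits without an array (adjusted p up to 0.11 in limma).

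In the complement list 4 of 18 genes fell and none rose (median -0.16). C4b, of the classical pathway, was at 0.57, 0.20, 0.89 and 0.81 against 1.72, 1.30, 1.41 and 1.93, and fell by 0.97 (SE 0.21, adjusted p 0.0063 in limma). The inhibitor gene Cfi (-1.01, adjusted p 0.018 in limma) fell too, as did Cfd, and Cfi lost its call without HFD-UNX replicate 2 (-0.84, adjusted p 0.061). From HFD-UNX replicates 1 and 2 alone 3 members were higher and 4 lower, and from 3 and 4 alone none passed.

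Glutathione genes split. Gclc, the rate-limiting subunit of glutathione synthesis, was at 3.02, 3.12, 3.44 and 3.01 in HFD-UNX and at 4.83, 5.03, 4.25 and 4.63 in LFD-sham. It fell by 1.53 (SE 0.25, adjusted p 0.0014 in limma), with 4.39 ± 0.49 in LFD-UNX and 3.50 ± 0.46 in HFD-sham. The transferase gene Gstm1 fell by 0.89 (SE 0.15, adjusted p 0.0016 in limma), while Gstm3 rose by 1.12 (SE 0.22, adjusted p 0.0036) and Gstp1 by 0.71 (SE 0.17, adjusted p 0.011). Gstm1 and Gstm3 are paralogs whose probes may share transcripts. With all kept probes averaged, Gstm1 differed by -0.017 (adjusted p 0.95 in limma), Gstm3 by 0.23 (adjusted p 0.70) and Gstp1 by 0.57 (adjusted p 0.050), and none of them passed. In all 3 of 23 list members rose and 2 fell (median -0.08). Asns, the asparagine synthetase of the amino acid response, was the only one of 18 stress response genes to pass. It was at -1.57, -1.59, -0.84 and -1.48 against -0.21, 0.24, -0.05 and -0.47 and fell by 1.25 (SE 0.21, adjusted p 0.0016 in limma).

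Growth factor and hypertrophy genes, the list closest to the enlargement of a remaining kidney, had 3 of 24 members higher and 6 lower. Mtor, the kinase that drives protein synthesis, was at 1.50, 1.76, 1.40 and 1.35 against 0.68, 0.85, 0.63 and 0.91 and rose by 0.74 (SE 0.17, adjusted p 0.0082 in limma). Eif4ebp1, the translation repressor that Mtor inactivates, fell by 0.79 (SE 0.12, adjusted p 0.00093 in limma), from 2.04, 1.93, 1.75 and 1.90 to 1.21, 1.30, 0.84 and 1.12. The EGF receptor ligand genes Hbegf (-0.98, adjusted p 0.0077 in limma) and Tgfa (at least 1.16-fold higher, adjusted p 0.0097) moved apart. Tgfa lost its call with normexp background correction and with a common floor for all arrays. Over the alternatives run, its log2 difference went down to 0.015. Igf1 fell by 0.52 and lost its call without LFD-sham replicate 1 (-0.44, adjusted p 0.067 in limma), and Egf differed by -0.08. From replicates 1 and 2 alone 5 were higher and 7 lower, and from 3 and 4 alone 1 and 2.

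Of 22 cell cycle genes 4 rose and none fell. Mcm2 of the replicative helicase was at -1.01, -1.12, -0.81 and -0.81 against -1.58, -1.39, -1.31 and -1.40 and rose by 0.48 (SE 0.11, adjusted p 0.0094 in limma). Cdk1 was well above background on 2 HFD-UNX arrays and no LFD-sham array, Top2a (at least 1.51-fold higher) on 4 and 1, and Ccne1 rose by 0.70. Those 3 lost their calls without LFD-sham replicate 2 (Cdk1, adjusted p 0.072 in limma), LFD-sham replicate 1 (Top2a, adjusted p 0.13) and HFD-UNX replicate 2 (Ccne1, adjusted p 0.12). Cdk1 lost its call in 5 of the 8 fits without an array, and Top2a and Ccne1 each in 6. Of 22 cytosolic ribosomal protein genes Rps18 fell by 0.84 (SE 0.13, adjusted p 0.0012 in limma) and Rpl10a by 0.55 (SE 0.14, adjusted p 0.013), and none rose. Neither passed with all kept probes averaged, where Rps18 differed by -0.15 (adjusted p 0.53 in limma) and Rpl10a by -0.35 (adjusted p 0.063). Of 20 respiratory chain genes Uqcrc1 of complex III rose 1.89-fold (adjusted p 0.0056 in limma), by 1.22 from HFD-UNX replicates 1 and 2 and by 0.63 from 3 and 4, where its call was lost.

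In the clock list 3 of 18 genes rose and none fell (median 0.24). Per1, a period gene that represses its own activators at E-boxes and answers to glucocorticoid, was at 2.78, 2.67, 2.64 and 2.34 in HFD-UNX and at 1.61, 1.04, 0.89 and 1.47 in LFD-sham. It rose 2.55-fold (log2 1.35, SE 0.25, adjusted p 0.0025 in limma), with 1.79 ± 0.46 in LFD-UNX and 1.78 ± 0.46 in HFD-sham. Per2 was at -1.46, -0.91, -1.57 and -1.71 against -2.34, -2.90, -2.75 and -1.98 and rose 2.11-fold (log2 1.08, SE 0.22, adjusted p 0.0051 in limma). The groups of neither gene overlapped. Per1 has a RefSeq promoter in build GRCm38.p6 here, and 60 bases of it are shown because they hold an E-box, CACGTG, in capitals, which begins 166 bases upstream of the start (chr11:69098756-69098815, plus strand).

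Per1: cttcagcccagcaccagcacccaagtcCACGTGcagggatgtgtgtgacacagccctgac

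That motif reads the same on both strands and is present in 1978 of 32851 promoters (6.02%) within 250 bases upstream, and a match does not show that it is bound. The hour at which kidneys were taken is not given in the sources used here. Of 19 immediate-early genes Klf2, a transcription factor of flow-exposed endothelium, fell by 0.63 and lost its call without HFD-UNX replicate 2 (-0.50, adjusted p 0.093 in limma). Klf2 lost its call in 5 of the 8 fits that left out an array.

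The remaining lists had few calls. Of 25 cytochrome, glucuronosyltransferase and eicosanoid genes Hpgd, which degrades prostaglandins, fell by 0.58 (SE 0.14, adjusted p 0.013 in limma). Of 7 measured adrenal markers the steroid hydroxylase gene Cyp21a1 (0.99, adjusted p 0.0013 in limma) and the tyrosine hydroxylase gene Th (0.94, adjusted p 0.0022) rose, and Mc2r, the receptor for corticotropin and well above background on 3 arrays of each group, fell by 1.02 with overlapping groups and lost its call without LFD-sham replicate 1 (adjusted p 0.13 in limma). Mc2r lost its call in 5 of the 8 fits that left out an array. The summed adrenal signal was -0.68 to -0.32 in LFD-sham and -0.59 to -0.21 in HFD-UNX, which overlapped. Of 18 kallikrein and major urinary protein genes 3 fell, all of them Mup genes. Cyp26b1, which degrades retinoic acid, was in no list and fell by 2.22 (SE 0.50, adjusted p 0.0080 in limma), from 1.51, 0.68, -0.38 and 1.89 to -1.22, -0.67, -1.06 and -2.23. Its mean was 0.66 in HFD-sham and 0.16 in LFD-UNX.

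At the dim end, 997 genes were well above background on some HFD-UNX array and on no LFD-sham array. Of them 345 were higher and 4 lower. Of 58 genes with the reverse pattern 17 were lower and none higher. Over all genes 10.4% were higher and 9.14% lower. Each class is defined by the group in which its genes were seen, so these directions follow from that choice. The 5 largest increases in the first class are given as bounds. Speer4d was at least 4.93-fold higher, Hes5, a Notch target, at least 4.65-fold, 1700049L16Rik at least 4.13-fold, Hyal6 at least 3.72-fold and Mpp2 at least 2.08-fold. Speer4d was at -3.32, -3.45, -3.09 and -3.49 in HFD-UNX and at -6.98, -6.29, -6.80 and -7.57 in LFD-sham, where the array floors were -5.81 to -5.22. All 5 of these genes lost their call with normexp background correction. In the class with the reverse pattern, Vmn1r74, a pheromone receptor gene, was at least 1.91-fold lower with overlapping groups. Syt10, singled out because its value was seen, was well above background on 4 HFD-UNX arrays and 2 LFD-sham arrays and was at least 28.6-fold higher (adjusted p 0.022 in limma). It was at 1.76, 0.63, -5.31 and 1.50 in HFD-UNX and at -3.69, -6.92, -7.40 and -5.52 in LFD-sham, so that replicate 3 lay among the LFD-sham values.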

How the data were processed

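Kidney RNA (100 ng of each mouse) was labelled with 1 dye and hybridised to Agilent arrays, per the labels' protocols, and spot intensities came from Agilent Feature Extraction (version 10.7 in the notes on processing that the submitters gave). The deposited processed intensity of each spot is background-subtracted and detrended, per the file headers. A deposited table of values matched it within a ratio of 0.995 to 1.005, so its intensity values are on the same linear scale.

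From these, log2 of the processed intensity minus the 75th percentile of the array was taken over 43020 non-control spots. Spots flagged as outliers (74 to 273 an array) were dropped. Probes well above background on at least 3 of the 15 arrays were kept, and the brightest probe stood for each of 16055 genes named through RefSeq accessions. limma 3.58.1 in R 4.3.3 fitted 1 mean per group over all 15 arrays, with Benjamini-Hochberg adjusted p under 0.05. A standard error is that of the fit, and an SD is over the arrays of a group. A bound sets the brighter mean against the lowest signal well above background on each array of the dimmer group. The 4 arrays a group limit the precision. The p-values rest on the spread between arrays within groups, taken as independent although arrays shared slides (correlation within a slide 0.41). A difference between the slides or scan days of the 2 groups is not counted in that spread. Feature names and coordinates of promoters are those of GRCm38.p6.

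Named genes were the 10 with the largest change in each direction among brightly measured genes without overlap, the 5 largest in each direction among genes not above background in 1 group, up to 4 members past the threshold in each of 36 lists, and a panel of 30. Members and lists were chosen with earlier results of these data known. The calculation was tested on simulated data. Alternatives covered normalization, background correction, filters, probe choice, slides, replicate numbers, array weights and each array left out, and 1, a common floor, was chosen after seeing the data. A few of the genes chosen by this rule are not reported here.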

Additional observations from a re-analysis of the deposited data

Results flagged for a closer look

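In 20 of 295 groups of 4 arrays tested over the 148 genes named, 1 array stood far from the other 3 by Dixon's test, and chance gives about 1 in 20. In HFD-UNX, replicate 3 was the highest for Fetub (-2.93, others -3.88 to -3.80) and Asns (-0.84) and the lowest for Th (-2.36), Il5ra (-3.54) and Syt10 (-5.31, others 0.63 to 1.76). Replicate 1 was the highest for Vmn1r74 (-6.71) and the lowest for Atp6v0d2 (-1.24) and Slc2a5 (4.07). Replicate 2 was the highest for Dcn (2.87) and the lowest for Timp1 (-3.32) and Rpl10a (6.11), and replicate 4 the highest for Cd4 (0.96) and the lowest for Lox (-8.09). In LFD-sham, replicate 3 was the lowest for Ccne1 (-4.22) and the highest for Rps18 (5.32), replicate 4 the lowest for Nos3 (0.52) and the highest for Adipor1 (1.48), replicate 1 the lowest for Acadl (1.83), and replicate 2 the lowest for Cd4 (-0.42) and the highest for Ppara (4.09). All values are log2 signals.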

How the results depend on the processing

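No alternative gave a gene called in the model without the slide the opposite call, but 38 genes had opposite calls between slide 1 only and slide 2 only, and the number of calls depended on background and slide. In limma, 186 genes were higher and 296 lower with normexp background correction, 76 and 8 with the slide as a random block, 2684 and 2383 with slides 1 and 2 as a fixed block, and 3870 and 4456 with array weights. With the HFD-UNX arrays of slide 1 only 2730 were higher and 3257 lower, and with those of slide 2 only 1269 and 721. A minimum of 2-fold left 663 and 172, and no filter on dim probes gave 3384 lower genes of 20659 tested. Leaving out 1 array at a time gave 1155 to 2027 higher and 816 to 2191 lower genes, with the lowest counts without HFD-UNX replicate 2. Quantile, loess, median and value table scaling, the filter requiring all 8 arrays, the mean of probes, the variance prior, the common floor and the fit of only the 8 arrays kept both counts within 1.5 times. Of the 120 named genes past the threshold 38 kept their call with normexp, 10 with the random block and 100 with the mean of probes. With the HFD-UNX arrays of slide 1 only 93 kept it, and with those of slide 2 only 62. Adig turned to 0.044 when all its probes were averaged (adjusted p 0.93). The cause of these changes was not tested. With the replicate number as a block, 1627 genes were higher and 1367 lower. Same-numbered arrays had correlations of deviations from -0.01 to 0.23 over 4 pairs, and arrays of different number from -0.19 to 0.09. So few pairs cannot decide whether the numbers pair the mice. Where probes were not well above background, bounds or the number of arrays that measured them are given, and 4 arrays a group limit the rest.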
